A study of Homo sapiens with 12 samples.

Results

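The response of LNCaP cells to the androgen dihydrotestosterone (DHT) was followed across all genes in 6 RNA-seq libraries, chosen by their labels from the 12 of the series. LNCaP is an established androgen-sensitive prostate cancer line that came from a lymph node metastasis. The DHT group (3 libraries) had been transfected for 48 h with a non-specific siRNA, starved of serum for 12 h and given 2.5 nM DHT for 24 h. The vehicle group (3 libraries) had the same transfection and starvation and received ethanol. A matched pair of groups with an siRNA against PXN, the gene of the focal adhesion adaptor paxillin, was used only to fit the spread and for 1 comparison at the end. Both groups here therefore carry a transfected siRNA and starved cells, and the line is a single cancer line with no stroma around it. Poly(A)-selected RNA was read from whole cultures, so fewer cells that express a gene and less of its RNA per cell cannot be told apart. Nothing in the labels ties the replicates to separate cultures, and p-values therefore reflect the spread among these libraries, which may be technical.

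DHT is the most potent natural androgen. Steroid hormones of this kind enter the cell and act through nuclear receptors, which chaperones hold until the hormone arrives and which then bind short DNA sites, the androgen response elements, near or far from target genes. In the prostate, androgen is known for driving the secretory programme of luminal cells, which includes the kallikrein proteases, lipid synthesis and protein export. It also lowers a set of genes that rise when androgen is withdrawn.

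Of 36137 listed gene symbols, 18468 had enough reads to be tested and 17669 did not. A gene is said to have risen or fallen where edgeR's quasi-likelihood test gave a Benjamini-Hochberg adjusted p under 0.05 over all tested genes, and every adjusted p here is from that two-sided test unless another fit is named. With DHT 502 genes rose (2.72% of those tested) and 398 fell (2.16%), 4.87% in all. The replicate numbers were taken to pair the libraries. In an alternative fit the number was a further term, shared by all 12 libraries of the series (the replicate block). With it 1140 genes were higher (6.17%) and 1096 lower (5.93%), and all 900 genes called without the block were among them. Counts given below with the block are to be held against these 2 shares. Library totals lay between 35376718 and 38633456 counts, so that 1 CPM (a count scaled to library size) stands for 33.7 to 37.0 reads. All DHT libraries lay above all vehicle libraries for 10.2% of tested genes and below them for 10.1%, 20.3% in all, which is the share to hold against any statement below that groups did not overlap. Mitochondrially encoded genes took 5.17% to 6.56% of counts in DHT libraries and 4.69% to 7.55% in vehicle libraries.

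The response was lopsided in size. Rises of at least 2-fold numbered 146 (0.791% of tested genes), falls of at least 2-fold 53 (0.287%), together 199 genes or 1.08%. That total was 318 without DHT replicate 1 and 124 without DHT replicate 3. The median log2 fold change was 0.58 among the rises and -0.48 among the falls, and 254 of the 502 rises and 245 of the 398 falls were under 1.5-fold. Summed over the genes that rose, levels came to 57939 CPM with DHT and 37161 CPM with vehicle. The 10 genes with the largest gain in CPM made up 33.1% of that difference, and KLK3 alone 7.63%. Over the genes that fell the sums were 20427 CPM with DHT and 27493 CPM with vehicle. Calls were more frequent at higher levels, with 1.36% of genes under a mean of 1 CPM called and 7.72% of those over 100 CPM. Of 836 long noncoding RNAs, 9 rose and 17 fell, against 434 rises and 342 falls among 13126 protein-coding genes.

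**Figure D1:**
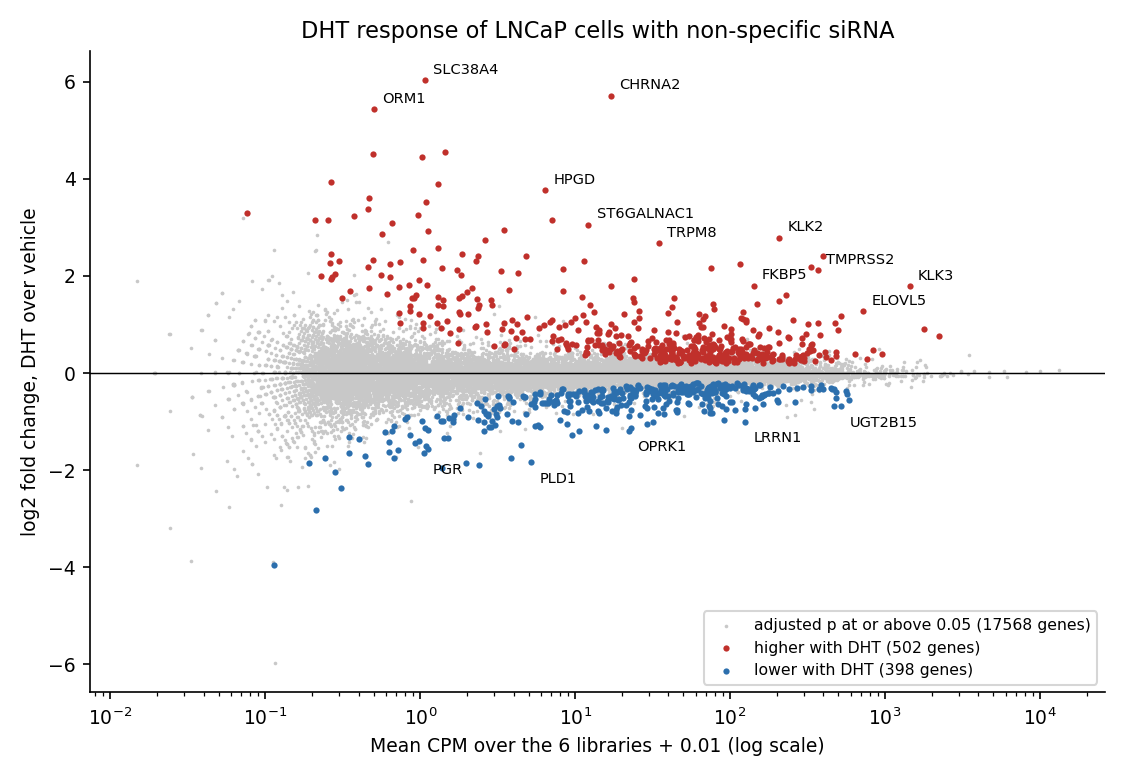
Log2 fold change (DHT over vehicle) of each of the 18468 tested genes against its mean CPM over the 6 libraries (log axis), with 502 rises in red and 398 falls in blue. Rises reach further from 0 than falls, and the fold changes of genes near 0 CPM, SLC38A4 and ORM1 among them, depend on the small count that the fit adds.

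The prostate kallikreins, a cluster of secreted serine proteases on chromosome 19, rose together. KLK3 encodes prostate-specific antigen, the serum marker of prostate disease, and KLK2 encodes its close relative. The promoters of both are shown because they share most letters of the androgen response element that earlier work placed just upstream of KLK3. Each line gives the 250 bases before the RefSeq start on GRCh38.p14, plus strand, 5′ to 3′. The capitals mark the run of 14 bases that both hold. It begins 169 bases before the start in KLK3 (chr19:50854665-50854914) and 175 bases before it in KLK2 (chr19:50873189-50873438). The base before the run is a in KLK3 and g in KLK2, so AGAACA is complete there in KLK3 alone.
KLK3: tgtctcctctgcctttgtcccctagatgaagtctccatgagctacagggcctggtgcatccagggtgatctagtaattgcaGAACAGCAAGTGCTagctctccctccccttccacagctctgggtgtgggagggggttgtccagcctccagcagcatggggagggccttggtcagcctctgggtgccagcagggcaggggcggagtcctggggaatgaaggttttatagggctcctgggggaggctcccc
KLK2: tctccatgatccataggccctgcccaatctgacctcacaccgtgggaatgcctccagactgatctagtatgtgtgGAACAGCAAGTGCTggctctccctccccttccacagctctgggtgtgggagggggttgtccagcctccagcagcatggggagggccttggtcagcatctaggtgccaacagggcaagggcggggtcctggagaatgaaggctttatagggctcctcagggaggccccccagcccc
This run was taken from the KLK3 and KLK2 promoters, so its presence in both was fixed in advance. Of 35116 RefSeq promoter windows, no others hold it on either strand, which says nothing about what it does. The longest stretch that is identical between the promoters is 80 bases, and it lies between this run and the start. The shorter word AGAACA, the core of such elements, or its reverse complement TGTTCT was looked for in the 250 bases before to 50 bases after the starts of 11730 tested genes (16940 windows). It was present in 7.9% of the windows of genes that rose, 10.6% of those that fell and 10.3% of all. For changes of at least 2-fold it was present in 15 of 143 windows of rises (10.5%, 92 genes). For falls it was in 3 of 46 windows (6.52%, 35 genes), too few to rank the 2 directions. None of the windows held AGAACA followed, after any 3 bases, by TGTTCT. The KLK3 site shown ends in AGTGCT, and KLK2 lacks AGAACA at that place, so neither has this form. The search misses elements that vary in this way, and these shares cannot say how many windows hold an element. These are matches of letters only, and distant sites were not searched.

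KLK3 was measured at 2250.1, 2358 and 2097 CPM in the 3 DHT libraries (replicates 1 to 3) and 761, 725 and 459 CPM in the 3 vehicle libraries. Every DHT library was above every vehicle library, and vehicle replicate 3 was the lowest of all. This is a log2 fold change of 1.78 ± 0.23 (SE), with an adjusted p of 0.000392. KLK2 stood at 261, 419 and 406 CPM with DHT and 54.3, 65.6 and 36.9 CPM with vehicle, a log2 fold change of 2.79 ± 0.35 (adjusted p = 0.000316). KLK4, a kallikrein of the same locus, had 138, 169.6 and 175 CPM with DHT and 73.1, 82.2 and 65.2 CPM with vehicle (1.13 ± 0.20, adjusted p = 0.00434). KLK2 and KLK3 are similar enough to share reads, and the rule used for counting such reads is unknown here. Of 11 tested genes for proteins of prostate secretions, 5 rose and none fell (5 higher and 2 lower, ACPP and FOLH1, with the block; 2 lower also without DHT replicate 1), and the others that rose were AZGP1 and ORM1. AZGP1, which encodes a zinc-binding glycoprotein of seminal fluid, averaged 27.2 ± 1.93 CPM with DHT and 20.7 ± 1.94 CPM with vehicle (SD, n = 3 each, log2 0.39 ± 0.09, adjusted p = 0.0217). Its call was lost without vehicle replicate 2 or 3 or DHT replicate 2 or 3, and adjusted p ranged from 0.0109 to 0.105 over the left-out libraries. ORM1, an acute-phase plasma protein gene, was read at 0.312, 1.22 and 1.37 CPM with DHT and was near 0 in all vehicle libraries (at most 0.0541 CPM, adjusted p = 0.00454).

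The next best known targets rose as well. TMPRSS2, a membrane serine protease whose promoter is often fused to ETS genes in prostate cancer, had 449, 631 and 710.4 CPM with DHT and 145, 151 and 115 CPM with vehicle, with no overlap (log2 2.12 ± 0.18, adjusted p = 1.97e-05). SLC45A3, a carrier of luminal prostate cells that is also a fusion partner, had 388, 612 and 640.1 CPM with DHT and 112, 142 and 106 CPM with vehicle (2.19 ± 0.23, adjusted p = 8.09e-05). PMEPA1, a membrane protein that dampens TGF-beta signalling, had 117, 218 and 241 CPM with DHT and 40.6, 41.5 and 38.6 CPM with vehicle (2.25 ± 0.24, adjusted p = 8.03e-05). In each of these, DHT replicate 1 was the lowest of the DHT libraries and still lay above all vehicle libraries. FKBP5, a chaperone partner of steroid receptors and a common readout of androgen and glucocorticoid exposure, was uneven. It had 99.8, 219.8 and 342 CPM in DHT replicates 1 to 3 and 59.8, 61.96 and 68.2 CPM in vehicle replicates 1 to 3. The groups did not overlap (log2 1.80 ± 0.37, adjusted p = 0.0103), but the call was lost without DHT replicate 3, and adjusted p ranged from 0.000323 to 0.0594 over the left-out libraries.

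A list of 100 genes known to respond to androgen in general gave 50 rises and no fall, against 2.72% and 2.16% of all tested genes. Its median log2 fold change was 0.37, against -0.01 over all tested genes, and 93 of the 100 values were above 0. With the replicate block 66 members were higher and none lower. The count of rises was 37 without DHT replicate 2, 35 without DHT replicate 3, 55 without DHT replicate 1 and 42 to 46 without a vehicle library. HERC3, a ubiquitin ligase gene, averaged 305 ± 45.4 CPM with DHT and 108 ± 12.03 CPM with vehicle (1.495 ± 0.11, adjusted p = 1.91e-05). HOMER2, a scaffold protein of glutamate receptor signalling, averaged 165 ± 26.1 CPM with DHT and 76.5 ± 3.62 CPM with vehicle (1.11 ± 0.09, adjusted p = 1.97e-05). STK39, a kinase that controls ion cotransporters, averaged 217 ± 34.9 CPM with DHT and 80.8 ± 8.49 CPM with vehicle (1.42 ± 0.13, adjusted p = 2.50e-05). All DHT libraries of these 3 genes lay above all vehicle libraries. ABHD2, a lipase, had one of the 10 largest gains in CPM, at 2329 ± 67.97 CPM with DHT and 1248 ± 141 CPM with vehicle (0.90 ± 0.10, adjusted p = 0.000146). Of the members that did not pass, TNFAIP8, an apoptosis regulator, had 14.1, 18.1 and 24.6 CPM with DHT and 14.95, 11.5 and 11.6 CPM with vehicle, and the groups overlapped (adjusted p = 0.0791, 0.0196 with the block).

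**Figure D2:**
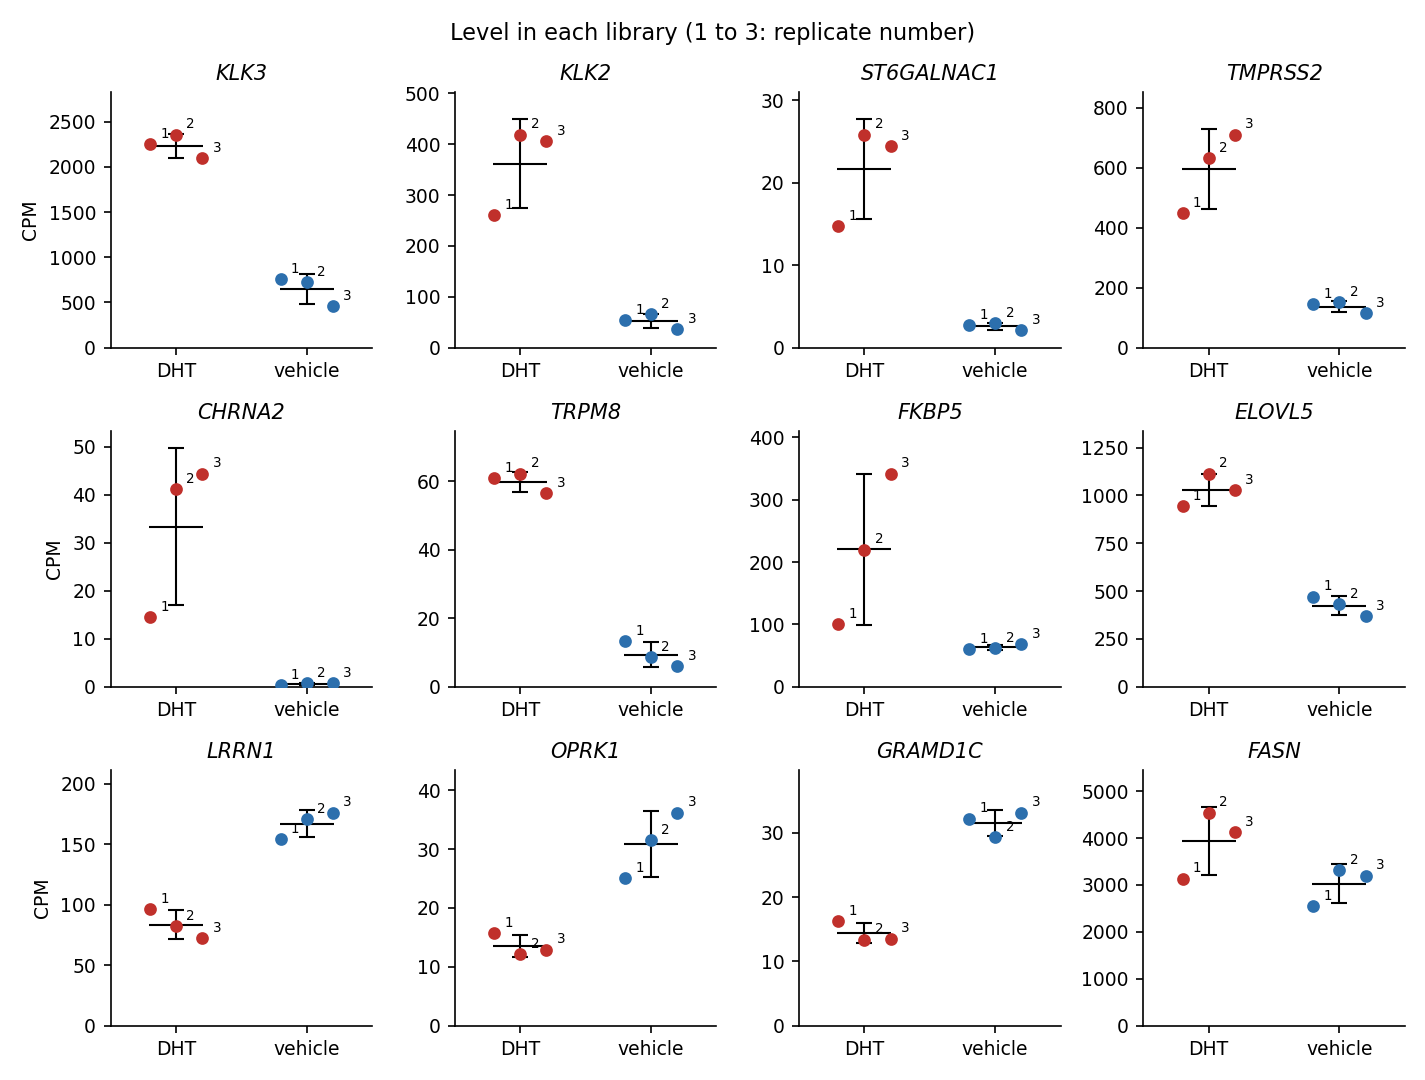
CPM of 12 genes in each DHT library (red, left) and vehicle library (blue, right), with the mean and SD in black and the replicate number beside each point. The groups overlap for FASN alone, and DHT replicate 1 is the DHT point nearest the vehicle points for all others but KLK3 and TRPM8.

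Of 28 tested coactivators, corepressors and chaperones of nuclear receptors, FKBP5 alone rose and NCOA3 and NCOA7 fell. That is 3.57% higher and 7.14% lower, against 2.72% and 2.16% of all tested genes, and rests on few genes. NCOA7, a nuclear receptor coactivator gene, had 61.5, 48.3 and 50.5 CPM with DHT and 99.999, 86.7 and 96.04 CPM with vehicle, with no overlap (log2 -0.82 ± 0.12, adjusted p = 0.000907). NCOA3, a coactivator of the p160 family, averaged 47.4 ± 2.13 CPM with DHT and 57.2 ± 4.201 CPM with vehicle, and its adjusted p of 0.0295 ranged from 0.0265 to 0.19 over the left-out libraries. It missed the threshold without vehicle replicate 1 or 3, DHT replicate 2 or 3, or replicate 3 of either PXN siRNA group. Among enzymes that make or break down androgens, 2 of 23 rose (8.7%) and 1 fell (4.35%), small counts to hold against the same shares. UGT2B15, which conjugates DHT to glucuronic acid for removal, had 543, 334 and 327 CPM with DHT and 768, 594 and 577 CPM with vehicle (-0.69 ± 0.17, adjusted p = 0.0263). Its call was lost without vehicle replicate 1 or DHT replicate 2 or 3 (adjusted p 0.000173 to 0.153). UGT2B28, of the same family, averaged 6.69 ± 1.15 CPM with DHT and 3.01 ± 0.606 CPM with vehicle (1.15 ± 0.20, adjusted p = 0.00369). UGT2B genes are alike in sequence and can share reads.

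Transcription factors of the prostate lineage were divided. Of 20 tested, 4 rose and 1 fell, and with the block 8 were higher and 4 lower. ZBTB16, a zinc finger repressor, averaged 28.8 ± 6.27 CPM with DHT and 12.4 ± 0.804 CPM with vehicle (log2 1.22 ± 0.16, adjusted p = 0.000377). SPDEF, an ETS factor of secretory epithelia, averaged 149 ± 27.6 CPM with DHT and 91.6 ± 0.908 CPM with vehicle (0.70 ± 0.12, adjusted p = 0.00374). ELK4, the ETS factor gene next to SLC45A3, averaged 250.1 ± 51.8 CPM with DHT and 162 ± 9.403 CPM with vehicle (0.62 ± 0.14, adjusted p = 0.0158), and lost its call without vehicle replicate 1 or DHT replicate 2 or 3 (adjusted p 0.000396 to 0.0849). Pioneer factors that open chromatin in luminal cells did not pass: FOXA1 averaged 437 ± 3.86 CPM with DHT and 462 ± 21.3 CPM with vehicle, and HOXB13 averaged 509 ± 12.7 CPM with DHT and 543 ± 23.6 CPM with vehicle (adjusted p = 0.587 and 0.55). SOX9, a factor of progenitor cells, had 11.2, 4.84 and 4.81 CPM with DHT and 15.5, 10.1 and 11.7 CPM with vehicle. Each DHT library was below the vehicle library of the same number, but the groups overlapped. Its adjusted p was 0.205 without the block and 0.000102 with it. The list's count of rises was 3 to 7 over the left-out libraries of these 6, highest without DHT replicate 1, and its 1 fall (GRHL1) was lost without vehicle replicate 1 or 3 or DHT replicate 2 or 3.

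Lipid genes were among the rises. Among 30 tested genes of fatty acid synthesis and activation 6 rose and 1 fell (10 and 1 with the block). ELOVL7, which lengthens saturated very long chains, had 92.3, 142 and 134 CPM with DHT and 30.7, 28.8 and 23.1 CPM with vehicle, with no overlap (log2 2.15 ± 0.18, adjusted p = 1.97e-05). ELOVL5, which lengthens polyunsaturated chains, had 943, 1114 and 1026 CPM with DHT and 471, 431 and 371 CPM with vehicle (1.28 ± 0.14, adjusted p = 9.36e-05). ACSL3, which couples fatty acids to coenzyme A, had 380.3, 539 and 568 CPM with DHT and 257, 244 and 229.5 CPM with vehicle (1.02 ± 0.12, adjusted p = 0.000217). DHT replicate 1 was the lowest DHT library for each of them, above all vehicle libraries. FASN, the fatty acid synthase, had 3136, 4541 and 4119 CPM with DHT and 2546, 3316 and 3200.3 CPM with vehicle. Its groups overlapped and its adjusted p was 0.273, against 0.000524 with the block. The count of rises in this list was 4 without vehicle replicate 1 or DHT replicate 2 or 3. THRSP, the one member that fell, lost its call without vehicle replicate 1 or 3 or DHT replicate 2 or 3 (adjusted p 0.0141, range 0.00853 to 0.0861).

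Of 32 tested genes of cholesterol synthesis, uptake and sensing, 5 rose and 1 fell. Their median log2 fold change was 0.31, with 27 of 32 values above 0, and with the block 21 were higher and 4 lower. SOAT1, which esterifies cholesterol for storage, had 76.95, 82.6 and 78.5 CPM with DHT and 56.1, 56.1 and 50.95 CPM with vehicle, with no overlap (log2 0.55 ± 0.08, adjusted p = 0.000888). It kept its call without any 1 library. SC5D, a desaturase late in cholesterol synthesis, averaged 242 ± 16.6 CPM with DHT and 193 ± 11.4 CPM with vehicle (0.33 ± 0.07, adjusted p = 0.0116), a call lost without vehicle replicate 3 or DHT replicate 2 or 3 (0.00325 to 0.0607). SCAP, the sterol sensor that escorts SREBP factors, averaged 171 ± 11.98 CPM with DHT and 129 ± 12.6 CPM with vehicle (0.41 ± 0.10, adjusted p = 0.032), a call lost without vehicle replicate 1 or 3 or DHT replicate 2 or 3 (0.0116 to 0.127). Other genes of this list did not pass without the block and did with it. HMGCS1, a synthase early in the path, had 397, 511 and 603 CPM with DHT and 352, 317 and 437 CPM with vehicle (adjusted p = 0.333, 0.0145 with the block). INSIG1, which holds SCAP back when sterols are plentiful, averaged 493 ± 38.4 CPM with DHT and 383 ± 17.6 CPM with vehicle (adjusted p = 0.125, 0.00295 with the block, 0.0382 to 0.337 over the left-out libraries). On the lower side stood sterol exporters. ABCA1 had 5.39, 2.57 and 2.496 CPM with DHT and 8.39, 6.95 and 7.08 CPM with vehicle (-1.10 ± 0.26, adjusted p = 0.0256), but lost its call without vehicle replicate 1 or 3 or DHT replicate 2 or 3 (0.000641 to 0.147). ABCG1 averaged 13.9 ± 5.97 CPM with DHT and 21.6 ± 5.42 CPM with vehicle (adjusted p = 0.278, 3.76e-05 with the block, 0.0278 to 0.681 over the left-out libraries). The list's rises numbered 2 without DHT replicate 2 or 3, 3 without vehicle replicate 3, 7 without DHT replicate 1 and 11 when only the 6 libraries were fitted, and its falls ranged from 0 to 3 over the left-out libraries of these 6.

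Of 27 genes of fatty acid oxidation 4 rose and 1 fell (6 and 3 with the block), and of 30 genes of glycolysis, sorbitol and the pentose phosphate path 5 rose and none fell. HK2, the hexokinase that traps glucose in the cell, had 64.5, 65.98 and 68.8 CPM with DHT and 44.01, 46.6 and 45.4 CPM with vehicle, with no overlap (0.55 ± 0.07, adjusted p = 0.000584). SORD, which turns sorbitol into fructose, averaged 409 ± 44.03 CPM with DHT and 271 ± 9.62 CPM with vehicle (0.59 ± 0.10, adjusted p = 0.00369), and a pseudogene copy of it exists that can share reads. SLC2A12, a glucose transporter, averaged 93.1 ± 4.32 CPM with DHT and 61.8 ± 13.1 CPM with vehicle (0.59 ± 0.11, adjusted p = 0.00603). None of these 3 genes had overlapping groups. In fatty acid oxidation SLC25A20, the carnitine carrier of the mitochondrial membrane, averaged 29.5 ± 0.825 CPM with DHT and 23.04 ± 1.24 CPM with vehicle (0.36 ± 0.07, adjusted p = 0.00707). The 4 rises of that list came to 2 without DHT replicate 2, vehicle replicate 2 or vehicle replicate 3, and 1 without DHT replicate 3. None of 31 nuclear genes of the respiratory chain and none of 13 mitochondrially encoded genes was called in either direction, with or without the block. Of the nuclear genes 28 of 31 values were below 0, by little (median log2 -0.04). Of the mitochondrially encoded genes 10 of 13 were above 0 (median 0.03).

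Among 19 genes of prostaglandin synthesis, breakdown and sensing were 4 rises and no fall. The median log2 fold change was -0.03, and with the block 4 were higher and 2 lower (PTGER3 and PLA2G2A). HPGD, the enzyme that inactivates prostaglandins, had 6.78, 14.1 and 15.01 CPM with DHT and 0.845, 1.001 and 0.777 CPM with vehicle, a log2 fold change of 3.76 ± 0.39 (adjusted p = 7.41e-05). PTGER4, a prostaglandin E2 receptor, averaged 4.19 ± 1.27 CPM with DHT and 1.48 ± 0.1102 CPM with vehicle (1.497 ± 0.22, adjusted p = 0.00122). ABCC4, a pump that exports prostaglandins and cyclic nucleotides, averaged 642 ± 66.1 CPM with DHT and 346 ± 56.9 CPM with vehicle (0.89 ± 0.13, adjusted p = 0.000794). PTGR1 was the other rise, and these 4 kept their calls without any 1 library, while 1 member was lower without DHT replicate 1 or vehicle replicate 3. In the retinoic acid path, 2 of 16 rose and 1 fell (3 and 1 with the block). ALDH1A3, which makes retinoic acid, had 50.3, 58.2 and 58.9 CPM with DHT and 27.5, 22.8 and 20.9 CPM with vehicle (1.24 ± 0.10, adjusted p = 1.91e-05). RDH10, which acts one step earlier, had 15.9, 14.1 and 11.1 CPM with DHT and 24.8, 22.6 and 22.1 CPM with vehicle (-0.76 ± 0.11, adjusted p = 0.000907). Neither gene's groups overlapped. GNMT, which uses up methyl donors by methylating glycine, averaged 23.7 ± 3.495 CPM with DHT and 12.5 ± 0.436 CPM with vehicle (0.93 ± 0.11, adjusted p = 0.000177).

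Genes for making and exporting secreted proteins were higher by small amounts. Of 53 tested genes of translocation into the endoplasmic reticulum, folding there and cargo export, 8 rose and none fell. The median log2 fold change was 0.14, with 45 of 53 values above 0, and 22 members were higher and none lower with the block. SEC11C, a subunit of the signal peptidase, had 149, 140.2 and 142 CPM with DHT and 117, 105 and 106 CPM with vehicle, with no overlap (0.39 ± 0.06, adjusted p = 0.00165). SAR1B, a GTPase of vesicles that leave the endoplasmic reticulum, averaged 227 ± 7.61 CPM with DHT and 187 ± 7.86 CPM with vehicle (0.29 ± 0.06, adjusted p = 0.0077). CREB3L4, a membrane-bound factor of secretory prostate cells, had 134, 179 and 156 CPM with DHT and 102, 129.7 and 105 CPM with vehicle (adjusted p = 0.079, 6.22e-06 with the block, 0.0231 to 0.298 over the left-out libraries). HSPA5, the main chaperone of the compartment, averaged 1437 ± 55.3 CPM with DHT and 1225 ± 89.6 CPM with vehicle and passed neither fit (adjusted p = 0.322 and 0.0675). The count of rises was 4 without DHT replicate 2, DHT replicate 3, vehicle replicate 1 or vehicle replicate 3, 11 without DHT replicate 1 and 15 with DESeq2. Of 22 genes of the unfolded protein and integrated stress responses, 3 rose and none fell (5 and 3 with the block). SEL1L of the degradation machinery was among the rises, at 359 ± 19.2 CPM with DHT and 271 ± 24.2 CPM with vehicle (0.41 ± 0.08, adjusted p = 0.00542). Without DHT replicate 2 or 3 or vehicle replicate 1 or 3, 2 of those 3 were called.

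Glycosylation genes were called in both directions. Of 39 genes of nucleotide sugars and glycosylation, 7 rose and 2 fell (14 and 5 with the block). ST6GALNAC1, which adds sialic acid to O-linked chains and makes the sialyl-Tn antigen, had 14.7, 25.9 and 24.5 CPM with DHT and 2.71, 2.95 and 2.13 CPM with vehicle, far apart in every library (log2 3.06 ± 0.28, adjusted p = 2.84e-05). GALNT7, which extends O-linked chains that others began, averaged 96.8 ± 10.5 CPM with DHT and 55.3 ± 3.74 CPM with vehicle (0.81 ± 0.09, adjusted p = 8.58e-05). UAP1, which makes the activated N-acetylhexosamines that these enzymes need, had 187, 278 and 327 CPM with DHT and 135, 146 and 158 CPM with vehicle (0.85 ± 0.17, adjusted p = 0.00812). Every DHT library of these 3 genes was above every vehicle library. CSGALNACT1, which starts chondroitin sulfate chains, averaged 12.7 ± 3.55 CPM with DHT and 3.96 ± 0.866 CPM with vehicle (1.68 ± 0.19, adjusted p = 0.000177). MAN1A1, a mannosidase of the Golgi, had 20.4, 8.86 and 8.77 CPM with DHT and 36.3, 22.2 and 24.3 CPM with vehicle (adjusted p = 0.0991, 5.38e-07 with the block, 0.00908 to 0.363 over the left-out libraries). The 2 falls, FUT8 and GALNT3, were both lost without any 1 of vehicle replicates 1 to 3 or DHT replicates 2 and 3, with adjusted p of up to 0.127 and 0.25. GALNT3 was lost as well without replicate 1 or 3 of the PXN siRNA vehicle group or replicate 1 or 2 of its DHT group. Without DHT replicate 1 the falls numbered 5.

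**Figure D3:**
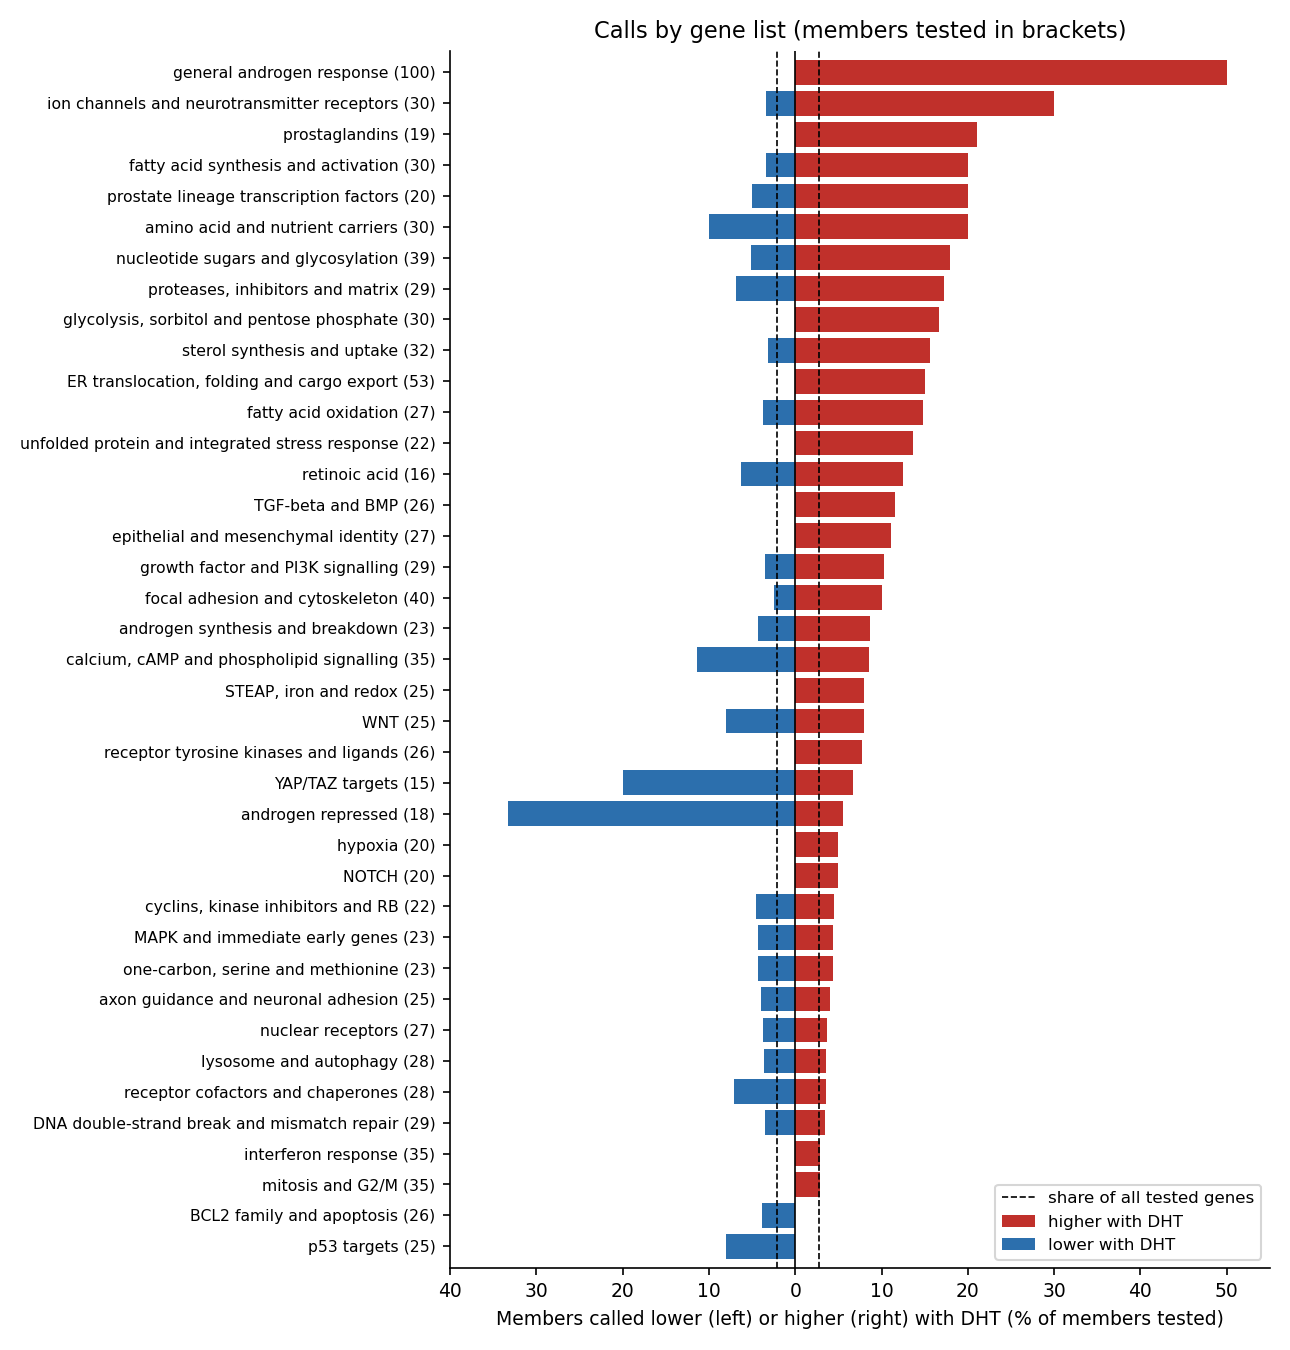
Percent of tested members called lower (blue, left) or higher (red, right) with DHT in each of the 39 gene lists with at least 15 tested members and at least 1 call, with dashed lines at the shares of all tested genes (2.16% lower, 2.72% higher). The general androgen list reaches 50% higher and the androgen-repressed list 33.3% lower.

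Ion channels and receptors for neurotransmitters held 9 rises and 1 fall among 30 tested genes (11 and 3 with the block), and the rises numbered 7 to 9 over the left-out libraries of these 6. The falls numbered 3 without DHT replicate 1 and 2 without vehicle replicate 2. CHRNA2, a nicotinic acetylcholine receptor subunit on chromosome 8, had 14.6, 41.1 and 44.4 CPM with DHT and 0.379, 0.757 and 0.748 CPM with vehicle. DHT replicate 1 was the lowest DHT library and still well above all vehicle libraries. The log2 fold change was 5.72 ± 0.62 (adjusted p = 0.000103), the largest rise among genes with at least 5 CPM in the higher group. TRPM8, the cold-sensing calcium channel of prostate epithelium, was even across the DHT libraries, at 60.8, 62.2 and 56.5 CPM. It was less even with vehicle, at 13.3, 8.6005 and 6.04 CPM (2.68 ± 0.23, adjusted p = 1.97e-05). GRIN3A, a glutamate receptor subunit, averaged 37.99 ± 4.22 CPM with DHT and 9.86 ± 2.99 CPM with vehicle (1.95 ± 0.24, adjusted p = 0.00028). KCNMA1, a large-conductance potassium channel, averaged 112 ± 8.21 CPM with DHT and 44.7 ± 8.798 CPM with vehicle (1.33 ± 0.16, adjusted p = 0.000213). The groups of these 3 genes were apart in every library. TRPV6, a calcium uptake channel, averaged 41.6 ± 3.88 CPM with DHT and 28.99 ± 3.97 CPM with vehicle (0.52 ± 0.10, adjusted p = 0.0077).

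Carriers for nutrients and ions went both ways, with 6 rises and 3 falls among 30 (11 and 5 with the block). SLC41A1, a magnesium carrier, had 113, 174 and 227 CPM with DHT and 83.1, 86.6 and 77.7 CPM with vehicle (1.05 ± 0.17, adjusted p = 0.00276). SLC38A4, an amino acid carrier of liver and placenta, was read at 0.596, 2.08 and 3.596 CPM with DHT and at no more than 0.0541 CPM in any vehicle library (adjusted p = 0.00178). On the falling side, SLC7A5, the large neutral amino acid carrier, had 9.16, 6.37 and 6.86 CPM with DHT and 14.2, 13.7 and 11.97 CPM with vehicle (-0.83 ± 0.14, adjusted p = 0.00289). SLC12A2, a sodium, potassium and chloride cotransporter, had 151, 117 and 112 CPM with DHT and 212, 190.3 and 193 CPM with vehicle (-0.64 ± 0.10, adjusted p = 0.00212). Falls numbered 2 without DHT replicate 2, DHT replicate 3 or vehicle replicate 1, and 5 without DHT replicate 1. STEAP4, a metalloreductase, was read at 0.454, 2.68 and 5.14 CPM with DHT and 0.117, 0.162 and 0.0575 CPM with vehicle, near the limit of reading in the vehicle group (4.56 ± 0.86, adjusted p = 0.00603).

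Of 29 genes of growth factor and PI3K signalling 3 rose and 1 fell (5 and 4 with the block). Of 26 receptor tyrosine kinases and their ligands 2 rose and none fell (2 and 4 with the block). Over all tested genes 2.72% rose and 2.16% fell, the shares to hold against each list here. IGF1R, the receptor for insulin-like growth factors, had 24.5, 38.7 and 41.7 CPM with DHT and 13.5, 14.7 and 9.98 CPM with vehicle, with no overlap (1.46 ± 0.18, adjusted p = 0.000313). INPP4B, a lipid phosphatase that counters PI3K signalling, averaged 18.5 ± 5.85 CPM with DHT and 7.77 ± 0.832 CPM with vehicle (1.25 ± 0.19, adjusted p = 0.00173). EGFR, the receptor for epidermal growth factor, averaged 129 ± 6.25 CPM with DHT and 94.7 ± 7.802 CPM with vehicle (0.44 ± 0.07, adjusted p = 0.00298). In none of these 3 did the groups overlap. FGFR3, the other receptor tyrosine kinase that rose, lost its call without vehicle replicate 3 or DHT replicate 2 (adjusted p 0.014, range 0.00997 to 0.0641). CAMKK2, a calcium-dependent kinase upstream of AMPK, had 176, 233 and 289 CPM with DHT and 125, 120.2 and 119.9 CPM with vehicle (0.94 ± 0.14, adjusted p = 0.00133). Among BMP and TGF-beta genes, 3 of 26 rose and none fell, and with the block 3 were higher and 3 lower (SKIL, ID3 and BAMBI). BMPR1B, a BMP receptor, averaged 68.2 ± 4.28 CPM with DHT and 40.1 ± 4.09 CPM with vehicle (0.77 ± 0.08, adjusted p = 5.93e-05). In the WNT list 2 of 25 rose and 2 fell (4 and 3 with the block). WNT7B, a ligand, averaged 47.3 ± 5.54 CPM with DHT and 29.6 ± 1.93 CPM with vehicle (0.67 ± 0.09, adjusted p = 0.00074). WNT5A, a ligand of the beta-catenin-independent branch, averaged 9.03 ± 1.197 CPM with DHT and 15.6 ± 0.864 CPM with vehicle (-0.79 ± 0.10, adjusted p = 0.000373). The other fall, RNF43, was lost without any 1 of the 6 libraries but DHT replicate 1, without any PXN siRNA vehicle library and without replicate 3 of PXN siRNA with DHT (adjusted p 0.039, range 0.00139 to 0.213). HES6, a partner of the NOTCH effector family, averaged 60.6 ± 15.7 CPM with DHT and 23.7 ± 2.23 CPM with vehicle (1.35 ± 0.22, adjusted p = 0.00254). It was the 1 call among 20 NOTCH genes (3 higher with the block), 5.0% against 4.87% of all tested genes. With the block 6.17% of all tested genes were higher and 5.93% lower, which much of the added calls in these lists may reflect.

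Genes of the YAP/TAZ list and of adhesion showed opposite members. WWTR1, which encodes TAZ itself, had 3.66, 6.1997 and 6.15 CPM with DHT and 1.11, 1.11 and 1.496 CPM with vehicle (2.11 ± 0.26, adjusted p = 0.000309). YAP1, its paralogue, had 137, 108 and 116 CPM with DHT and 185, 151 and 166 CPM with vehicle (-0.48 ± 0.10, adjusted p = 0.0103), a call lost without vehicle replicate 1 or 3 or DHT replicate 2 or 3 (0.00239 to 0.087). AJUBA, an adaptor of the Hippo path, averaged 28.1 ± 1.22 CPM with DHT and 38.7 ± 1.97 CPM with vehicle (-0.46 ± 0.07, adjusted p = 0.000946). Altogether 1 of 15 rose and 3 fell (5 with the block), with a median log2 of -0.25. Falls in this list numbered 1 without DHT replicate 3, vehicle replicate 1 or vehicle replicate 3 and 2 without DHT replicate 2. Of 40 genes of focal adhesions and the cytoskeleton, 4 rose and 1 fell (8 and 3 with the block). TNS3, a focal adhesion protein, averaged 3.13 ± 0.457 CPM with DHT and 0.565 ± 0.0529 CPM with vehicle (2.46 ± 0.20, adjusted p = 1.97e-05). IQGAP2, a scaffold protein of the cytoskeleton, averaged 26.3 ± 6.39 CPM with DHT and 7.59 ± 0.418 CPM with vehicle (1.79 ± 0.18, adjusted p = 6.18e-05). MYLK, the myosin light chain kinase, had 10.95, 7.36 and 7.67 CPM with DHT and 19.5, 17.4 and 18.7 CPM with vehicle (-1.10 ± 0.21, adjusted p = 0.0062). In these 3 genes the DHT and vehicle libraries did not overlap. PXN, the gene of paxillin, had 113, 99.7 and 104 CPM with DHT and 112, 106 and 108 CPM with vehicle, with overlapping groups (-0.04 ± 0.10, adjusted p = 0.917). Without vehicle replicate 2 the adhesion list had 7 rises.

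Proteases and matrix genes gave 5 rises and 2 falls among 29 (9 and 6 with the block). F5, which encodes coagulation factor V, had 5.59, 15.1 and 17.3 CPM with DHT and 1.22, 1.76 and 1.27 CPM with vehicle (3.15 ± 0.42, adjusted p = 0.000479). LAMA1, a laminin chain, had 3.69, 6.17 and 8.499 CPM with DHT and 1.02, 0.649 and 0.691 CPM with vehicle (2.96 ± 0.37, adjusted p = 0.000309). ADAM7, a metalloprotease-like protein of the male tract, averaged 4.52 ± 1.78 CPM with DHT and 0.669 ± 0.00725 CPM with vehicle (2.75 ± 0.33, adjusted p = 0.000236). These 3 genes had their lowest DHT value in replicate 1. VWA2, a secreted protein with von Willebrand domains, had 3.18, 1.74 and 2.14 CPM with DHT and 7.61, 6.71 and 5.29 CPM with vehicle (-1.47 ± 0.20, adjusted p = 0.000638). KRT19, a keratin of simple epithelia, averaged 2.02 ± 0.3297 CPM with DHT and 0.775 ± 0.254 CPM with vehicle (1.38 ± 0.23, adjusted p = 0.00294).

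Calls among genes of DNA copying and mitosis were near the shares of all tested genes (2.72% higher and 2.16% lower). None of 35 tested genes for copying DNA and entering S phase was called, yet 33 of the 35 values were above 0, with a median log2 fold change of 0.16. With the block 8 were higher and none lower. CDC6, which loads the replicative helicase, had 65.6, 69.3 and 75.7 CPM with DHT and 47.4, 48.9 and 55.5 CPM with vehicle, with no overlap (0.47 ± 0.15, adjusted p = 0.103, 0.015 with the block). MCM5, a helicase subunit, averaged 60.5 ± 1.32 CPM with DHT and 47.8 ± 2.39 CPM with vehicle (0.34 ± 0.11, adjusted p = 0.103, 0.0084 with the block). Members called higher numbered 2 without DHT replicate 1, 6 with DESeq2, 4 with limma-voom and 7 when only the 6 libraries were fitted. In mitosis CENPN, a centromere protein, was the 1 of 35 that rose, at 58.1, 96.2 and 108 CPM with DHT and 37.3, 35.6 and 40.4 CPM with vehicle (1.21 ± 0.19, adjusted p = 0.0018). CDK6, a kinase of G1, averaged 5.65 ± 1.47 CPM with DHT and 2.804 ± 0.218 CPM with vehicle (1.01 ± 0.19, adjusted p = 0.00595). Of 25 targets of p53, none rose and 2 fell (6 with the block), and 3 of the 25 values were above 0. SESN1, a stress-induced inhibitor of mTOR, had 247, 198 and 185 CPM with DHT and 342, 295 and 311 CPM with vehicle (-0.59 ± 0.10, adjusted p = 0.00369). TP53INP1, a stress-induced regulator of p53, had 535, 481 and 449.9 CPM with DHT and 676, 623 and 665 CPM with vehicle (-0.42 ± 0.08, adjusted p = 0.0054), and was at 0.0506 without DHT replicate 3. CDKN1A, the classic p53 target and cell cycle inhibitor, averaged 335 ± 50.7 CPM with DHT and 396 ± 54.3 CPM with vehicle and was not called (adjusted p = 0.596). Of 29 tested genes of double-strand break and mismatch repair, 1 rose and 1 fell (2 and 1 with the block). That is 3.45% each, near the 2.72% and 2.16% of all tested genes. They were the mismatch repair genes MSH6 and PMS2, at 0.34 ± 0.06 and -0.63 ± 0.11 on the log2 scale (adjusted p = 0.00331 and 0.00377).

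Genes known to be held down by androgen were the list with the largest share of falls among those plotted. Of 18 tested, 6 fell and 1 rose (9 and 1 with the block), against 2.16% and 2.72% of all tested genes, and the median log2 fold change was -0.47. OPRK1, the kappa opioid receptor, had 15.7, 12.2 and 12.9 CPM with DHT and 25.04, 31.5 and 36.2 CPM with vehicle, with no overlap (log2 -1.18 ± 0.15, adjusted p = 0.000319). Of the falls, OPRK1 and WNT5A alone stayed past the threshold under every left-out library, as did the 1 rise, UGT2B28. BCHE, a cholinesterase, had 161, 125 and 119 CPM with DHT and 190.1, 184 and 184 CPM with vehicle (-0.46 ± 0.11, adjusted p = 0.0194), and its adjusted p over the left-out libraries was 0.000628 to 0.122. ACKR3, a scavenging chemokine receptor, had 169, 116 and 116 CPM with DHT and 192, 191 and 176 CPM with vehicle (-0.48 ± 0.12, adjusted p = 0.0257, range 4.91e-05 to 0.157). In both, DHT replicate 1 lay close to the vehicle libraries. CAMK2N1, an inhibitor of calcium-dependent kinase II, had 376, 183 and 222 CPM with DHT and 511, 367 and 432 CPM with vehicle, with 1 overlap and an adjusted p of 0.0649 (3.52e-05 with the block). The falls in the list numbered 2 without vehicle replicate 1 or DHT replicate 2 or 3, 3 without vehicle replicate 3, 5 without vehicle replicate 2 and 7 without DHT replicate 1. BCHE missed the threshold without vehicle replicate 1 or 3 or DHT replicate 2 or 3, and ACKR3 without any of the 6 but DHT replicate 1.

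Most of the 15 largest falls were in no list of androgen-repressed genes. PLD1, which makes the lipid messenger phosphatidic acid, had 4.14, 1.49 and 1.13 CPM with DHT and 10.8, 5.71 and 7.83 CPM with vehicle (log2 -1.84 ± 0.36, adjusted p = 0.00778). It was the largest fall by the naming rule, and its call was lost without DHT replicate 2 (adjusted p 7.86e-05 to 0.0521 over the left-out libraries). LRRC31, a leucine-rich repeat protein gene, had 2.18, 1.25 and 1.81 CPM with DHT and 6.65, 4.41 and 6.67 CPM with vehicle (-1.76 ± 0.24, adjusted p = 0.00071). AMIGO2, a neuronal adhesion protein, had 6.95, 4.62 and 5.23 CPM with DHT and 14.4, 12.2 and 13.8 CPM with vehicle (-1.27 ± 0.15, adjusted p = 0.000199). Each of these had all DHT libraries below all vehicle libraries. GRAMD1C, a carrier of cholesterol between membranes, had 16.3, 13.4 and 13.6 CPM with DHT and 32.2, 29.3 and 33.1 CPM with vehicle (-1.13 ± 0.10, adjusted p = 2.50e-05). RFX3, a factor of ciliated cells, had 24.3, 17.3 and 15.2 CPM with DHT and 39.6, 37.9 and 39.8 CPM with vehicle (-1.05 ± 0.17, adjusted p = 0.0023). LRRN1, a neuronal leucine-rich repeat protein, had 96.2, 82.3 and 72.5 CPM with DHT and 154, 171 and 176 CPM with vehicle (-0.999 ± 0.10, adjusted p = 5.65e-05), with DHT replicate 3 the lowest. By loss of CPM, KIF5B, the heavy chain of the motor kinesin, and GRB10, an adaptor that dampens insulin signalling, stood high. KIF5B averaged 478 ± 36.6 CPM with DHT and 700.4 ± 79.4 CPM with vehicle (-0.55 ± 0.09, adjusted p = 0.00209). GRB10 averaged 359 ± 67.7 CPM with DHT and 576 ± 42.9 CPM with vehicle (-0.68 ± 0.11, adjusted p = 0.00204). For both, all DHT libraries were below all vehicle libraries. PGR, the progesterone receptor, was read at 0.482, 0.637 and 0.386 CPM with DHT and 0.991, 1.73 and 2.04 CPM with vehicle (-1.65 ± 0.30, adjusted p = 0.00436). DRAIC, a long noncoding RNA, averaged 9.697 ± 1.32 CPM with DHT and 14.2 ± 0.553 CPM with vehicle (-0.55 ± 0.10, adjusted p = 0.00369).

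**Figure D4:**
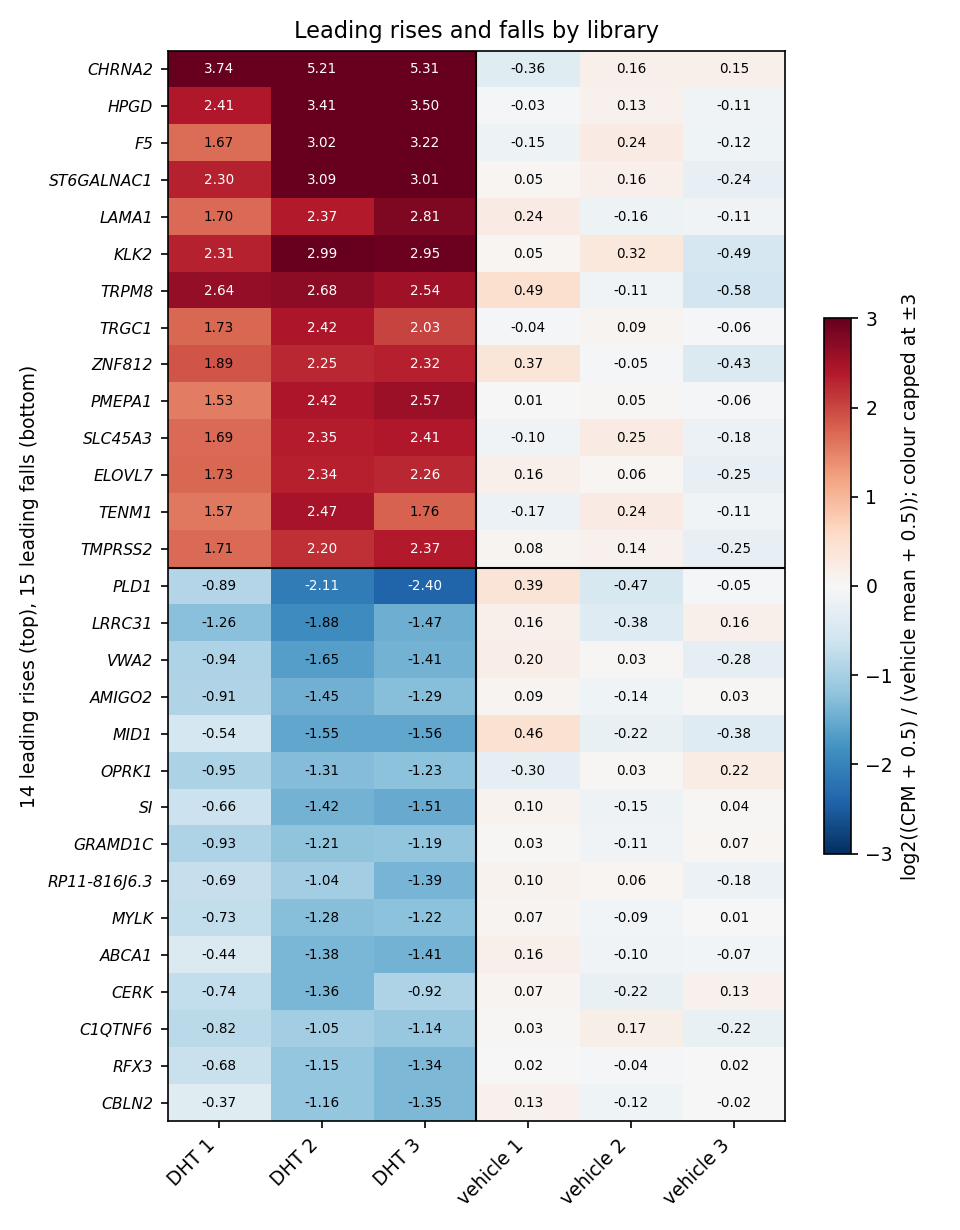
Log2 ratio of each library's CPM to the mean of the vehicle libraries (0.5 added to both) for 14 leading rises and the 15 largest falls among called genes with at least 5 CPM in the higher group, DHT libraries left and vehicle libraries right. DHT replicate 1 has the ratio nearest 0 of the DHT columns in all rows but that of TRPM8.

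Replicates differed in the size of the response. Over the 502 genes that rose, the median log2 ratio to the vehicle mean was 0.40, 0.59 and 0.64 in DHT replicates 1 to 3, and replicate 1 was the lowest DHT library for 392 of them. For the 146 rises of at least 2-fold the medians were 0.80, 1.27 and 1.34. Over the 398 falls they were -0.34, -0.55 and -0.52, and replicate 1 was the highest DHT library for 312 genes. Over all tested genes replicate 1 was the lowest for 6614 and the highest for 6403 of 18468. Without it 1361 genes were called, 678 of them lower, against 416 and 423 without DHT replicate 3 or 2 and 500 and 522 without vehicle replicate 3 or 1. These counts use the same genes that the test chose and are a description. Its share of mitochondrially encoded counts (5.61%) lay between those of the other DHT libraries, and whether other differences between libraries had a part was not tested.

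The markers of the cell line were as labelled. All 8 markers of luminal prostate epithelium were read, with mean levels of 260.4 to 1470 CPM, and summed to 7168, 7079 and 7023 CPM with DHT and 5521, 5214 and 4861 CPM with vehicle. That sum includes KLK3, which rose. Of 18 markers of basal, stromal, endothelial and blood cells, 8 had enough reads to be tested, and these summed to 61.7, 55.3 and 49.2 CPM with DHT and 58.4, 59.1 and 49.6 CPM with vehicle. KRT14, a basal keratin, was the 1 that was called, at 0.539, 0.332 and 0.446 CPM with DHT and 0.0583, 0.162 and 0.0863 CPM with vehicle (adjusted p = 0.0155, 0.0146 to 0.079 over the left-out libraries), and lost the call without vehicle replicate 1 or 3 or DHT replicate 3.

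Several lists held 1 call or none. With so few members, such counts do not stand apart from the shares of all tested genes (2.72% higher and 2.16% lower). None of 19 polyamine genes, 30 genes of ribosome biogenesis and 20 tRNA synthetases passed, while with the block 3, 6 and 0 were higher and 0, 0 and 1 lower. Values above 0 numbered 13 of 19, 25 of 30 and 7 of 20 in these lists. In other lists, 1 of 35 interferon response genes rose (HERC6), 1 of 26 apoptosis genes fell (BIRC3), and 1 of 11 neuroendocrine genes fell (DDC). Each of these calls was lost with some left-out library. With the block the same lists had 2, 1 and 0 members higher and 1, 3 and 2 lower. HERC6 averaged 20.7 ± 3.06 CPM with DHT and 14.2 ± 0.686 CPM with vehicle (adjusted p = 0.014, 0.00253 to 0.08 over the left-out libraries). It was lost without vehicle replicate 3 or DHT replicate 3. BIRC3, an inhibitor of apoptosis, averaged 8.52 ± 0.782 CPM with DHT and 11.8 ± 0.738 CPM with vehicle (adjusted p = 0.0165, 0.0099 to 0.115). DDC, which makes dopamine and serotonin, had 101, 60.7 and 74.6 CPM with DHT and 131, 98.1 and 129.6 CPM with vehicle, with overlap (adjusted p = 0.0294, 0.000952 to 0.154). BIRC3 and DDC were lost without vehicle replicate 1 or 3 or DHT replicate 2 or 3. In all, 166 of the 1210 tested members of 51 lists were called, and 734 of the 900 called genes are in no list.

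The same hormone was given to cells with the PXN siRNA, and the test of the difference asks whether their response was another one. PXN itself stood at 14.9 to 21.2 CPM in the 6 libraries with PXN siRNA and 99.7 to 113 CPM in the 6 with non-specific siRNA. With PXN siRNA 34 genes were called for DHT (0.184%). All 14 leading rises described here had the same sign there, 11 of them were called, and 13 had a smaller value. All 15 of the largest falls had the same sign and a smaller value, and none was called. Since these genes were chosen for large values with the non-specific siRNA, a smaller value elsewhere carries no weight by itself. CHRNA2 had a log2 fold change of 4.18 ± 0.62 with PXN siRNA and 5.72 ± 0.62 with non-specific siRNA. KLK2 had 3.09 ± 0.37 with PXN siRNA and 2.79 ± 0.35 with non-specific siRNA, and TMPRSS2 had 1.22 ± 0.18 with PXN siRNA and 2.12 ± 0.18 with non-specific siRNA. The difference between the responses was called for no gene (edgeR, interaction term, 0 of 18468), with 778 genes (4.21%) at an unadjusted p under 0.05. The lowest adjusted p of that term was 0.692 among the 14 rises and 0.238 among the 15 falls. With the replicate block it passed for 1 of these rises, SLC45A3 (adjusted p = 0.0362), and for 5 of the falls, GRAMD1C (0.00914), AMIGO2 (0.0218), MID1 (0.0218), CERK (0.0281) and MYLK (0.0448). DESeq2's Wald test called 37 genes, and edgeR with the replicate block 58. Without the block edgeR called 45 when DHT replicate 1 (non-specific siRNA) was left out. With vehicle replicate 1 or 2 left out, 1 gene was called in each case (ALDH1A3 and FAM174B). FAM174B, a membrane protein gene, had 83.9, 101 and 99.6 CPM with DHT and 40.7, 46.3 and 39.6 CPM with vehicle under the non-specific siRNA, with a log2 fold change of 0.36 ± 0.08 with PXN siRNA and 1.17 ± 0.08 with non-specific siRNA. That it is shown was decided after its values were seen.

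**Figure D5:**
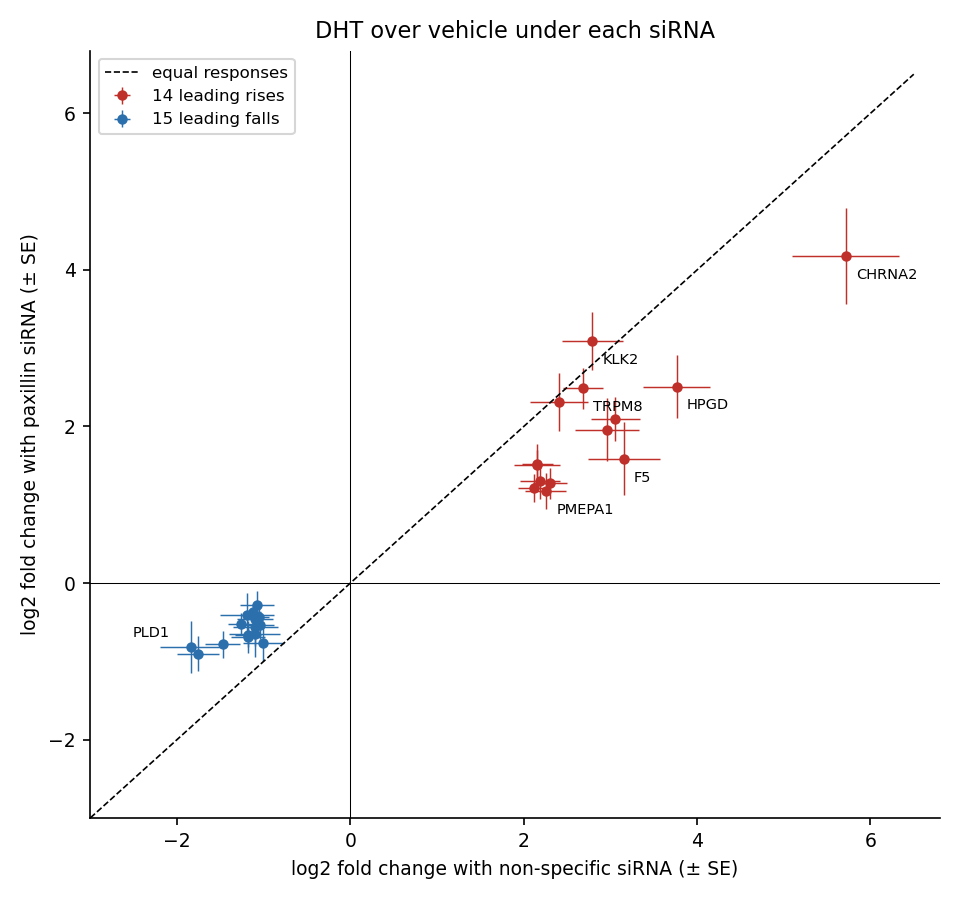
Log2 fold change of DHT over vehicle with PXN siRNA (vertical axis) against that with non-specific siRNA (horizontal axis), with SE bars, for 14 leading rises (red) and 15 largest falls (blue) by the non-specific siRNA. The dashed line marks equal responses, and of the rises KLK2 lies above it.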

How the data were processed

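The deposited table holds whole-number counts per gene symbol, which the authors made with Trimmomatic 0.32, STAR 2.4.2a and featureCounts (Subread 1.5.0p3) on GRCh38, per the submitters' processing notes. Libraries were TruSeq Stranded mRNA from RNeasy Plus RNA, per the labels' protocols. No source used here gives the annotation, the strand setting or the handling of shared reads, so values of antisense, overlapping and paralogous genes are less certain. No row lacked a gene name.

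In R 4.3.3, edgeR 4.0.16 fitted 1 quasi-likelihood model with 4 group means to all 12 libraries (TMM scaling, filterByExpr, 8 residual degrees of freedom), and genes under a Benjamini-Hochberg adjusted p of 0.05 were called. SE is the log2 fold change divided by the square root of F. CPM use TMM-scaled library sizes. DESeq2 1.42.0 and limma 3.58.1 served as alternatives. Replicates differed beyond sampling noise (chi-square per gene 9.78 to 28.2 within these groups). The steps were tested on simulated data with known changes. Gene positions are from GENCODE 29 on GRCh38 and promoters from RefSeq.

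Same-numbered DHT and vehicle libraries deviated together (correlations 0.321, 0.383 and 0.145), so the numbers were taken to pair them. Different-numbered ones gave -0.331 to -0.0143. Deviations within a group sum to 0, so these negative values follow in part from the positive ones and add no separate evidence. Whether the numbers also pair the PXN siRNA libraries, which share the block term, is not shown here.

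The genes named are the 15 largest rises and falls with at least 5 CPM and no overlap, the 10 largest gains and losses in CPM, up to 5 called members of each list, and check genes for the labels. Some genes that this rule picks, the largest rises included, are not reported here. Members and lists were chosen with earlier results of these data known, and further genes after their values were seen: those of a list that did not pass, some called list members, SLC38A4, neighbouring genes and FAM174B.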

Additional observations from a re-analysis of the deposited data

How the results depend on the processing

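Of 177 named genes that were called, 43 stayed past the threshold under every alternative run, 133 lost the call when the fold change was tested against 1.5, 60 at an adjusted p of 0.01 and 64 with some left-out library. The fit with the replicate number as a term (the replicate block) called 2236 genes, 1140 higher and 1096 lower. It called 58 for the difference in response between the siRNAs. All 900 calls held with it, and what it added in the gene lists described is given beside their counts where it moved them by over 1.5 times. An adjusted p of 0.01 left 406 genes, 267 higher and 139 lower, and a test against a 1.5-fold change left 79, 69 higher and 10 lower. Fitting only the 6 libraries gave 239 genes lower. Over the left-out libraries the count ranged from 416 to 1361, with 290 to 683 higher and 124 to 678 lower, and the difference between siRNAs from 0 to 45 genes. That difference was called for 1 gene with DESeq2 size factors, 35 with no filter on low counts and 37 with DESeq2's Wald test. Other scalings, filters, DESeq2 and limma-voom kept the counts of called, higher and lower genes within 1.5 times. Calls of at least 2-fold, 199 in all, numbered 127 with a mean of at least 1 CPM required, 132 at an adjusted p of 0.01 and 77 in the test against 1.5-fold. PXN, not called, went to 0.0113 without DHT replicate 2 (range -0.0895 to 0.0113). The cause was not tested. Genes near 0 CPM rest on a few reads.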

Other observations

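Genes called in the same direction often sat next to each other. Among genes placed by GENCODE 29 on GRCh38, the next tested gene had also risen for 60 of 459 rises (13.1%, against 3.07% of all positioned genes), and had also fallen for 37 of 364 falls (10.2%, against 2.44%). These shares are a description, since neighbours can share reads. Runs of 4 were found on chromosome 19, where KLK3, KLK2, KLKP1 and KLK4 rose (50854915 to 50910738), and on chromosome 11, where GLYATL2, GLYATL1P2, GLYATL1 and GLYATL1P1 rose (58834065 to 59043527). GLYATL genes encode relatives of glycine acyltransferase, and their pseudogenes can share reads with them. KLKP1 missed the threshold without vehicle replicate 3 or DHT replicate 2. GLYATL1P1 missed it without vehicle replicate 2 or 3, DHT replicate 2 or 3, or replicate 3 of PXN siRNA with DHT.

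A run of 4 falls lay on chromosome 3 between 169766921 and 169869930. MYNN, a zinc finger gene, had 68.0, 56.0 and 60.5 CPM with DHT and 116, 119 and 127 CPM with vehicle (log2 -0.97 ± 0.13, edgeR adjusted p = 0.000643). ACTRT3, an actin-related gene next to it, had 15.3, 11.6 and 12.6 CPM with DHT and 21.1, 23.3 and 25.4 CPM with vehicle (-0.82 ± 0.13, adjusted p = 0.00148). LRRC34 and LRRC31 complete the run, and LRRC34 missed the threshold without vehicle replicate 2 or 3 or DHT replicate 1 or 3 (adjusted p 0.0251, range 0.022 to 0.13).

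On chromosome 12, HOXC13, its antisense RNA HOXC13-AS and HOXC12 fell side by side (53935328 to 53958956), by -0.78, -1.06 and -0.55 on the log2 scale. HOXC13 lost its call without vehicle replicate 1 or DHT replicate 2 or 3. Reads of HOXC13 and HOXC13-AS cannot be told apart unless the counting used strand. On chromosome 7, STARD3NL, TRGC2, TRGC1 and TRG-AS1 rose (38178222 to 38378804). TRGC1, a constant segment of the T cell receptor gamma locus, which LNCaP cells are known to transcribe under androgen, had 6.19, 10.3 and 7.76 CPM with DHT and 1.46, 1.65 and 1.44 CPM with vehicle (2.41 ± 0.33, adjusted p = 0.000714). TRG-AS1 missed the threshold without vehicle replicate 1 or 2 or DHT replicate 2 or 3.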
